A study of Rattus norvegicus with 12 samples.

Results

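The vascular endothelial growth factor (VEGF) family was followed here through 9 genes of the rat heart, out of 32623 genes measured. They were taken by symbol and are the ligands Vegfa, Vegfb, Vegfc and Pgf, the receptor tyrosine kinases Kdr, Flt1 and Flt4, and the co-receptors Nrp1 and Nrp2. Heart total RNA was read in 12 libraries, 4 in each of 3 groups, and all animals were males of the Sprague Dawley strain. Their stated age of 5 weeks and weight of 130 to 150 g are taken here as those at the start. The weeks in each group's protocol, given next, exceed that age. CTRL rats stayed in normoxia for 8 weeks. SU_HX rats were given 20 mg/kg of SU-5416 under the skin, a small molecule that blocks VEGF receptors, and spent 3 weeks in 10% oxygen and 2 weeks in normoxia, in an order the labels leave ambiguous, before 3 weeks on vehicle in normoxia. Chrysin rats had the same SU-5416 and hypoxia and received 100 mg/kg of chrysin, a plant flavone, daily in place of vehicle. SU-5416 with hypoxia is a model of pulmonary hypertension, and both groups that carry it were sampled weeks after the drug and the low oxygen. No group received SU-5416 alone, hypoxia alone or chrysin alone, and which chamber of the heart was sampled is unknown. Whether every library is a different rat is not said outright in the labels; the p-values reflect only how far these libraries scatter.

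VEGF ligands bind receptor tyrosine kinases on endothelial cells, the lining of blood and lymphatic vessels. Vegfa binds Kdr (VEGFR2), the main signalling receptor for growth of blood vessels, and Flt1 (VEGFR1), which holds the ligand more tightly but signals weakly, while Vegfb and Pgf bind Flt1 alone. Vegfc binds Flt4 (VEGFR3), the receptor of lymphatic endothelium and of sprouting blood vessels, and the neuropilins Nrp1 and Nrp2 help present ligands to these receptors.

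The libraries held 3997306 to 6009798 counts in genes. A pair of libraries stood apart from their groups. SU_HX 1 had 71.8% of its gene reads in introns, where the remaining 11 libraries had 50.5% to 60.8%. Its summed cardiomyocyte markers, a sum in which the myosin genes Myh6 and Myh7 weigh heavily, were the lowest of all at 26215 CPM (each count over its library's TMM-adjusted total, on the usual CPM scale). In Chrysin 3, the summed atrial markers, a sum that the natriuretic peptide gene Nppa carries in the treated groups (mean 3656 CPM in Chrysin), stood at 144 CPM, against 2978 to 7122 CPM in the other Chrysin libraries and 39.5 to 82.8 CPM in CTRL. The main results are therefore given with and without this pair of libraries. The pair was picked from these same data, and Chrysin 3 for a sum near CTRL. Leaving it out therefore tends to raise the calls in Chrysin against CTRL, and calls gained that way are no separate support. RNA of a whole tissue piece cannot tell fewer cells of a type from less RNA per cell, which holds for each result that follows.

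In the SU_HX hearts Flt4, Kdr and Vegfc were higher than in CTRL and Vegfb was lower, so that 4 of the 9 genes passed the threshold (edgeR's quasi-likelihood F test, two-sided, adjusted p under 0.05 over 12304 genes). Of all genes tested 30.7% passed in this comparison, 16% higher and 14.7% lower, so that 4 of 9 is close to that background. Flt4 rose by 2.35-fold, Vegfc by 2.15-fold and Kdr by 1.66-fold, and Vegfb fell by 2.32-fold. Against CTRL, the Chrysin hearts had 1 gene past the threshold, Flt4, which was 2.03-fold higher, beside 8.69% of all genes (4.72% higher and 3.97% lower). Without SU_HX 1 and Chrysin 3, 4 of the 9 and 3564 genes in all passed in Chrysin against CTRL in place of 1 and 1069, and 3 of the 9 passed in SU_HX against CTRL. The gain in Chrysin is limited by how the pair was picked, as said above. Between the Chrysin and SU_HX hearts none of the 9 passed, beside 0% of all genes. The median log2 change of the 9 was 0.31 for SU_HX against CTRL, beside 0.07 for all genes. It was -0.21 for Chrysin against SU_HX, beside -0.05, and 0.05 for Chrysin against CTRL, beside 0.00. SU_HX enters the first pair of these comparisons and CTRL enters the first and the last, so they do not stand as independent results.

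**Figure D1:**
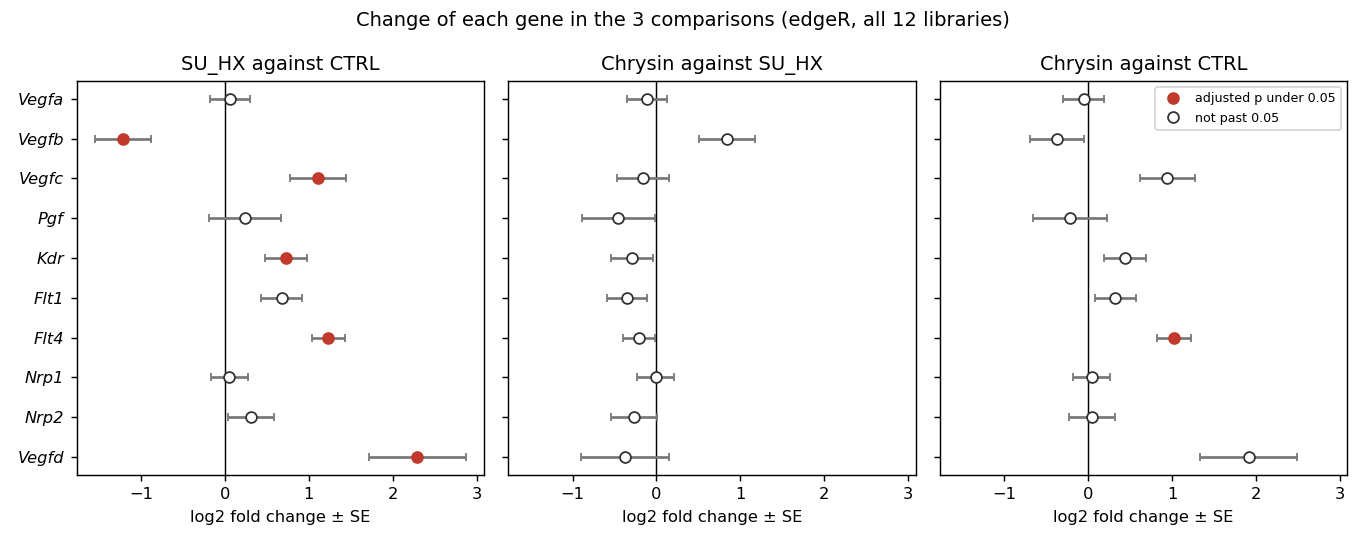
Log2 fold change with its standard error for each VEGF gene (vertical axis) in the 3 comparisons, from edgeR on all 12 libraries; filled points passed an adjusted p of 0.05. In SU_HX against CTRL, Vegfb lies left of 0 at -1.21 and Vegfc, Kdr and Flt4 lie right of it, while in Chrysin against SU_HX no point is filled. Vegfd is shown as a related ligand outside the 9 genes.

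The promoters of the 4 genes that passed in SU_HX against CTRL are shown because they are the members whose RNA level moved. Each is the 250 bases before the RefSeq start of the gene, in build GRCr8, written in the direction of the gene; all 9 genes were matched in the RefSeq table. Capitals mark matches on either strand to the GC box, with the letters GGGCGG, and to a pair of hypoxia response cores, of which the first has the letters ACGTG and the second the letters GCGTG; no match to 1 of these overlapped another motif.
Flt4 promoter, chr10:34414584-34414833, plus strand: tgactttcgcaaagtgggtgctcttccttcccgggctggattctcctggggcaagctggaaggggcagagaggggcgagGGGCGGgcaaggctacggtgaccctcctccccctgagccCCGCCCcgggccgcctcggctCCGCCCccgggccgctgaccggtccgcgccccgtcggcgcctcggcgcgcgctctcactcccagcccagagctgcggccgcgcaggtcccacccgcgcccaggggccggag
Vegfc promoter, chr16:44560888-44561137, minus strand: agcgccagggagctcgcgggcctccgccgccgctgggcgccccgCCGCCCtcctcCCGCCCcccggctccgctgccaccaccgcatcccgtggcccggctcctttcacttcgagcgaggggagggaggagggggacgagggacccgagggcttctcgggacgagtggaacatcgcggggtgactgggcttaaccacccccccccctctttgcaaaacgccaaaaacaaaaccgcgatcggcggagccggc
Kdr promoter, chr14:32571813-32572062, plus strand: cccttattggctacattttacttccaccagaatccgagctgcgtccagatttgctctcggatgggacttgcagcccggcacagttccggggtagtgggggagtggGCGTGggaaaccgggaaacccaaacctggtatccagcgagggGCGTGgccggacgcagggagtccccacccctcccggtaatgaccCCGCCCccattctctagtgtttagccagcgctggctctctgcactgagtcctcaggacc
Vegfb promoter, chr1:213607153-213607402, minus strand: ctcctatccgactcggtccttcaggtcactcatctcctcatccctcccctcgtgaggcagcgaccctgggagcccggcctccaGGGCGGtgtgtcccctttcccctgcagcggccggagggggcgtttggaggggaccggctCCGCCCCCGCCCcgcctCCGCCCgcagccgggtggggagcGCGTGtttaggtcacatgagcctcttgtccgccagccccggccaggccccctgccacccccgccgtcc
The GC box occurred 3 times in the Flt4 window, 2 times for Vegfc, 1 time for Kdr and 4 times for Vegfb, and 30.5% of 33469 rat promoter windows of this length held at least 1. GCGTG occurred 2 times for Kdr and 1 time for Vegfb, and 25.9% of the windows held it. ACGTG, which 16.6% of the windows held, was in none of the 9 windows. The share of G and C was 76% for Flt4, 73.2% for Vegfb, 72.4% for Vegfc and 61.6% for Kdr, beside a median of 51.2% over all windows. Genes that rose and the gene that fell thus shared the GC box and a high share of G and C. These traits were not particular to them. Among members that did not pass, Vegfa and Flt1 each held 3 GC boxes and Pgf held 2, while Nrp1 and Nrp2 held 0. The shares of G and C were 60.4% for Vegfa, 73.2% for Flt1, 69.2% for Pgf, 66.4% for Nrp1 and 52.8% for Nrp2. A match of letters is not a binding site.

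Levels were compared between genes only per length, as CPM divided by the exon length in kilobases. In CTRL hearts Vegfa stood highest at 170 ± 13.5 (SD, n = 4). It was followed by Nrp1 at 76.5 ± 10.9 and Vegfb at 60.9 ± 7.39, whose ranges overlapped, then by Kdr at 38.2 ± 2.85, Flt1 at 31.2 ± 1.92 and Nrp2 at 13.9 ± 0.721. Flt4 at 4.64 ± 0.689 overlapped Vegfc at 2.56 ± 1.06, and Pgf was lowest at 1.20 ± 0.350. Vegfa and Vegfb therefore made up most of the ligand RNA in CTRL, with the lymphangiogenic ligand and receptor near the bottom of the order. In SU_HX hearts Vegfa and Nrp1 kept the first places at 178 ± 67.5 and 79.4 ± 24.9. Vegfb, at 26.1 ± 14.6, came after Kdr at 63.4 ± 29.2 and Flt1 at 49.7 ± 22.4, but neighbours from Nrp1 down to Flt4 overlapped in range. Flt4 at 10.9 ± 1.62 no longer overlapped Vegfc at 5.48 ± 1.61. In Chrysin hearts the order was Vegfa, Nrp1, Kdr, Vegfb, Flt1, Nrp2, Flt4, Vegfc and Pgf, and Vegfb at 47.1 ± 11.4 overlapped both Kdr and Flt1.

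**Figure D2:**
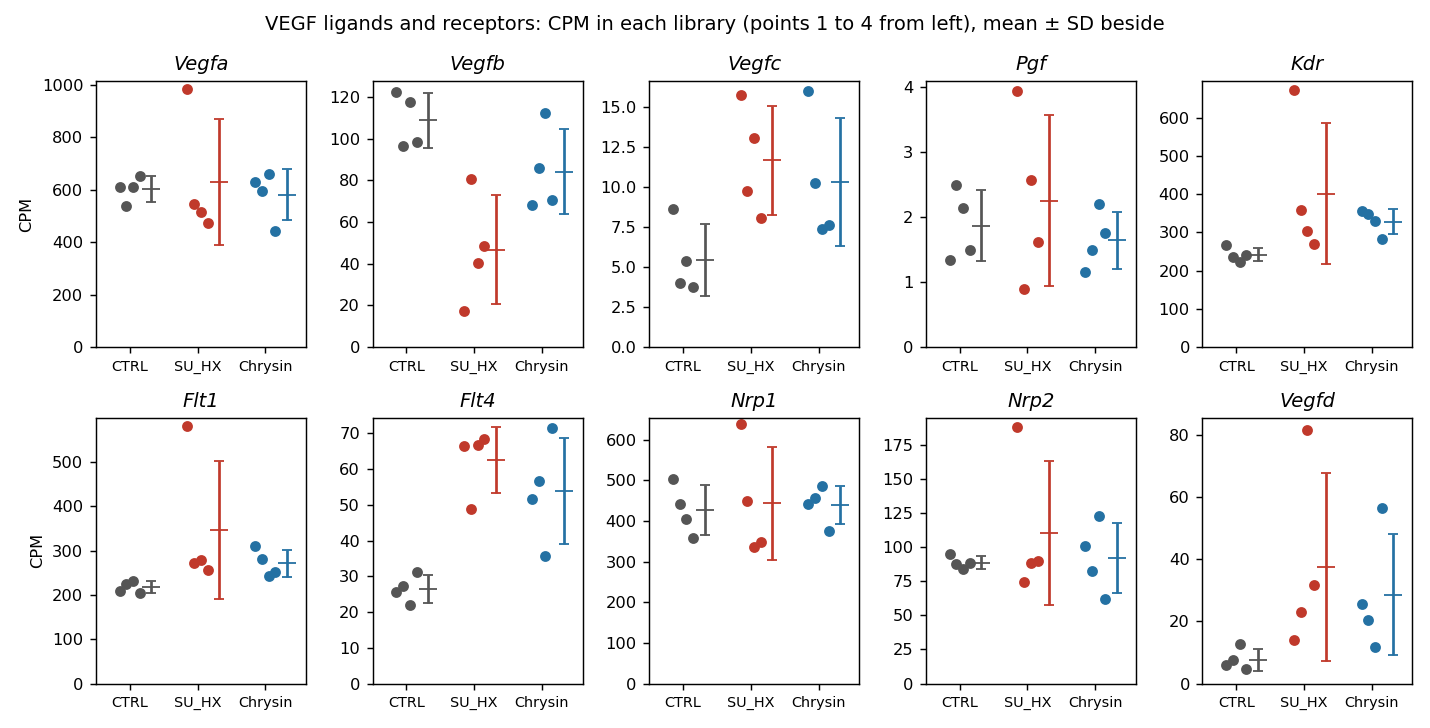
CPM (vertical axis, from 0) of each gene in the 4 CTRL, 4 SU_HX and 4 Chrysin libraries, with the group mean and SD beside the points. All SU_HX and Chrysin points of Flt4 lie above all CTRL points, all SU_HX points of Vegfb lie below them, and SU_HX 1 is the top SU_HX point for Vegfa, Vegfc, Pgf, Kdr, Flt1, Nrp1 and Nrp2.

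Vegfa, the main ligand for blood vessel growth, had CPM of 611, 537, 612 and 652 in CTRL, 985, 544, 516 and 472 in SU_HX, and 631, 594, 662 and 441 in Chrysin. SU_HX 1 was the highest of the 12, SU_HX 2 lay within the CTRL range and SU_HX 3 and 4 lay under it, so the groups overlapped. The log2 change in SU_HX against CTRL was 0.06 ± 0.24 (SE), with a 95% interval of -0.41 to 0.54 and an edgeR adjusted p of 0.865. Without SU_HX 1 and Chrysin 3 it was -0.24, and it did not pass in any of the 20 alternatives. Reads in the introns of Vegfa, which come from unspliced RNA or genomic DNA, had CPM of 349, 184, 253 and 378 in CTRL, 85.6, 185, 165 and 171 in SU_HX, and 205, 194, 218 and 121 in Chrysin. SU_HX 1, 3 and 4 lay under every CTRL library and SU_HX 2 just above the lowest of them, so the groups overlapped. The intron level fell by 0.94 ± 0.28 on the log2 scale in SU_HX against CTRL (edgeR adjusted p = 0.0311 over 12814 genes), where 3 of the 9 genes passed by introns (Vegfc and Flt4 higher, Vegfa lower) beside 19.2% of all genes (7.66% higher and 11.5% lower). That call ended when any of CTRL 1, CTRL 4, SU_HX 1, SU_HX 3 or SU_HX 4 was left out, with adjusted p of 0.0852, 0.0930, 0.0504, 0.0586 and 0.0518. The Chrysin libraries gave an intron change of -0.66 ± 0.28 against CTRL that did not pass (edgeR adjusted p = 0.144). Against CTRL 1 of the 9 genes passed by introns in Chrysin, Vegfc, beside 10.9% of all genes (4.5% higher and 6.39% lower). Against SU_HX 0 of the 9 passed by introns in edgeR, beside 0.0078% of all genes, which is 1 gene and was higher. An unadjusted edgeR p under 0.05 was reached by 0 of the 9, a count whose share over all genes was not taken for introns.

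Vegfb, the Flt1 ligand that is abundant in heart muscle, had CPM of 122, 96.5, 118 and 98.5 in CTRL, 17.4, 80.5, 40.5 and 48.3 in SU_HX, and 68.1, 85.8, 113 and 70.4 in Chrysin. Every SU_HX library lay under every CTRL library, with SU_HX 1 lowest by far, and the Chrysin libraries overlapped both groups. The log2 change in SU_HX against CTRL was -1.21 ± 0.33 (edgeR adjusted p = 0.0153). It was -0.94 when SU_HX 1 was left out, and the call was lost in 1 of the 20 alternatives, without SU_HX 3 (adjusted p = 0.0526). Chrysin stood 1.79-fold above SU_HX, a log2 difference of 0.84 ± 0.33 with a 95% interval of 0.20 to 1.49 that did not pass (edgeR unadjusted p = 0.0238, adjusted p = 0.557). Over the alternatives that difference ran from 0.40 to 1.25 and its adjusted p from 0.0936 to 0.976. Chrysin against CTRL gave -0.37 ± 0.32 (edgeR adjusted p = 0.505), so Chrysin passed against neither group. Intron reads of Vegfb lay under CTRL without overlap in both treated groups. The share of all genes without overlap was taken for counts and not for introns, so this separation has no background beside it. Their log2 changes against CTRL were -0.85 ± 0.28 in SU_HX and -0.69 ± 0.28 in Chrysin, and neither passed (edgeR adjusted p = 0.0515 and 0.126). Chrysin against SU_HX gave 0.16 ± 0.29 by introns (edgeR unadjusted p = 0.599), so the difference seen in counts was not seen there. Among the 4 ligands, per length, Vegfb took 22.8% to 27.9% of the sum in CTRL libraries. In SU_HX the share was 3.27%, 22.1%, 12.9% and 16.4% in libraries 1 to 4, below the CTRL range throughout, and in Chrysin it was 17.01% to 24.8%. Within SU_HX the order of the libraries by Vegfb (1, 3, 4, 2 from the lowest) was also their order by summed cardiomyocyte markers, which were 81246 to 87643 CPM in CTRL, 26215, 60164, 35806 and 58725 CPM in SU_HX 1 to 4, and 43808 to 86647 CPM in Chrysin. The orders differed in the other groups. In Chrysin they were 1, 4, 2, 3 by Vegfb and 4, 1, 2, 3 by the sums. In CTRL they were 2, 4, 3, 1 by Vegfb and 2, 1, 4, 3 by the sums. Myh6 (mean 40500 CPM in CTRL and 4010 CPM in SU_HX) and Myh7 (4322 and 15400 CPM) weigh heavily in these sums. The sums are therefore no plain measure of muscle cell content. Of 11 cardiomyocyte markers tested, 4 fell (Myh6, Tnni3, Pln, Myl3), 1 rose (Myh7) and 6 did not pass in SU_HX against CTRL. None of the listed markers was at 0 in all libraries, and the part of these markers in the Vegfb result was not tested.

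Vegfc, the ligand of Flt4 and the main growth factor of lymphatic vessels, had CPM of 8.66, 4.03, 5.36 and 3.73 in CTRL, 15.8, 9.75, 13.1 and 8.09 in SU_HX, and 16.0, 10.2, 7.41 and 7.63 in Chrysin. These rest on 20 to 97 counts per library, the second lowest of the family. CTRL 1 overlapped the lowest SU_HX library and the lowest Chrysin libraries, and the other CTRL libraries lay under both groups. The log2 change in SU_HX against CTRL was 1.11 ± 0.33 (edgeR adjusted p = 0.0235). That call was lost without CTRL 2, CTRL 3, CTRL 4, SU_HX 1 or SU_HX 3, with adjusted p of 0.0715, 0.0568, 0.0689, 0.0506 and 0.0605. Against CTRL the Chrysin hearts had a log2 change of 0.94 ± 0.33 that did not pass (edgeR adjusted p = 0.0911), whereas without SU_HX 1 and Chrysin 3 it was 1.06 and passed (adjusted p = 0.0258). It also passed without Chrysin 3 alone (adjusted p = 0.0466) and with the replicate number as a block (adjusted p = 0.0368). Intron reads of Vegfc were 25.4 to 43.7 CPM in CTRL, 53.2 to 69.2 CPM in SU_HX and 46.3 to 124 CPM in Chrysin, with both groups above CTRL without overlap. As for Vegfb, the share of all genes without overlap was not taken for introns. By introns Vegfc passed in both, with log2 changes of 0.92 ± 0.28 in SU_HX (edgeR adjusted p = 0.0363) and 1.14 ± 0.28 in Chrysin (edgeR adjusted p = 0.0245). The SU_HX intron call was lost without CTRL 1, 2 or 4, without SU_HX 1, 2 or 3, and without SU_HX 1 and Chrysin 3 together; the Chrysin intron call was lost without CTRL 1, 2 or 4 or Chrysin 4.

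Pgf, the placental growth factor, was near the limit of detection at 5 to 17 counts per library. Its CPM were 1.33, 2.49, 2.14 and 1.49 in CTRL, 3.94, 0.886, 2.57 and 1.62 in SU_HX, and 1.15, 1.49, 2.20 and 1.75 in Chrysin. The 3 groups overlapped, and the SU_HX libraries held both the highest and the lowest value. The log2 change in SU_HX against CTRL was 0.24 ± 0.43, with a 95% interval of -0.60 to 1.09 (edgeR adjusted p = 0.697), which leaves changes of either sign within reach at this depth. Intron reads of Pgf, also few, lay under CTRL without overlap in both treated groups. Their log2 changes against CTRL were -0.93 ± 0.36 in SU_HX and -1.20 ± 0.37 in Chrysin. Neither passed (edgeR adjusted p = 0.0920 and 0.0564), and the share of all genes without overlap was not taken for introns. Vegfd is another Flt4 ligand and was not one of the 9 genes but came from a list of VEGF binding genes. It had CPM of 5.997, 7.48, 12.7 and 4.66 in CTRL, 14.1, 23.04, 81.6 and 31.7 in SU_HX, and 25.7, 20.5, 11.8 and 56.4 in Chrysin. All SU_HX libraries lay above all CTRL libraries, and Chrysin 3 lay within the CTRL range. Vegfd rose by 4.89-fold in SU_HX (log2 2.29 ± 0.58, edgeR adjusted p = 0.0106), a call kept in all 20 alternatives, although the log2 change was 1.59 without SU_HX 3. The Chrysin mean stood 3.76-fold above CTRL without passing (edgeR adjusted p = 0.0563). It passed in 6 of the 20 alternatives. In edgeR these were without SU_HX 1 and Chrysin 3 (adjusted p = 0.0128), SU_HX 1 (0.0343), SU_HX 3 (0.0270) or Chrysin 3 (0.0220). The others were only the groups compared (edgeR adjusted p = 0.0275) and DESeq2 (adjusted p = 0.00988).

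Flt4, the receptor that Vegfc and Vegfd share, had CPM of 25.5, 27.4, 21.9 and 31.3 in CTRL, 66.3, 48.7, 66.8 and 68.4 in SU_HX, and 51.6, 56.7, 35.7 and 71.5 in Chrysin. All libraries of both treated groups lay above all CTRL libraries, with SU_HX 2 and Chrysin 3 the lowest of their groups. The log2 change was 1.23 ± 0.20 in SU_HX against CTRL (edgeR adjusted p = 0.00151) and 1.02 ± 0.20 in Chrysin against CTRL (edgeR adjusted p = 0.0108). Both calls held in all 20 alternatives, with the highest adjusted p at 0.00766 and 0.0438. Chrysin and SU_HX differed by -0.21 ± 0.19 on the log2 scale, with a 95% interval of -0.59 to 0.17 (edgeR adjusted p = 0.659). Intron reads of Flt4 were 16.3 to 22.4 CPM in CTRL, 22.3 to 33.2 CPM in SU_HX and 22.1 to 42.3 CPM in Chrysin, so that both groups touched the top of CTRL. The intron change was smaller, 0.67 ± 0.21 on the log2 scale in SU_HX (edgeR adjusted p = 0.0400), and was lost without CTRL 1, 3 or 4 or SU_HX 2, 3 or 4. In Chrysin it was 0.67 ± 0.21 and did not pass (edgeR adjusted p = 0.0569).

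Kdr, the main signalling receptor of blood vessels, had CPM of 267, 236, 223 and 242 in CTRL, 674, 359, 305 and 269 in SU_HX, and 356, 348, 329 and 282 in Chrysin. All treated libraries exceeded all CTRL libraries, by a narrow gap for SU_HX 4, and SU_HX 1 stood far above the others. The log2 change in SU_HX against CTRL was 0.73 ± 0.25 (edgeR adjusted p = 0.0429). The call was lost in 12 of the 20 alternatives, among them leaving out CTRL 1, 2, 3 or 4, SU_HX 1, or Chrysin 1 or 2, with adjusted p of 0.0725, 0.0947, 0.102, 0.0802, 0.0637, 0.0570 and 0.0596. Without SU_HX 1 the log2 change was 0.36. Kdr in Chrysin against CTRL had a log2 change of 0.44 ± 0.25 that did not pass (edgeR adjusted p = 0.291). It passed in 3 of the 20 alternatives. These were only the groups compared (edgeR adjusted p = 0.0173), without SU_HX 1 (0.0372), and without SU_HX 1 and Chrysin 3, where the log2 change was 0.44 (0.0320).

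Flt1, the receptor shared by Vegfa, Vegfb and Pgf, had CPM of 208, 226, 231 and 203 in CTRL, 580, 271, 278 and 257 in SU_HX, and 310, 282, 242 and 252 in Chrysin. As for Kdr, all treated libraries exceeded all CTRL libraries and SU_HX 1 stood far above the rest. The log2 change in SU_HX against CTRL was 0.67 ± 0.24, just outside the threshold (edgeR adjusted p = 0.0503), and passed in 5 of the 20 alternatives (relative log size factors, a mean of at least 5 CPM, DESeq2, and without SU_HX 2 or SU_HX 4; adjusted p 0.0194 to 0.0497). Without SU_HX 1 it was 0.31. For Chrysin against CTRL it was 0.32 ± 0.24 (edgeR adjusted p = 0.432), and 0.37 with an adjusted p of 0.0305 without SU_HX 1 and Chrysin 3. It also passed with only the groups compared (edgeR adjusted p = 0.046). The log2 ratio of Flt1 to Kdr per length was -0.29 ± 0.18 in CTRL, -0.34 ± 0.15 in SU_HX and -0.41 ± 0.12 in Chrysin (SD, n = 4), and the 3 groups overlapped. Intron reads moved little for both: the log2 change in SU_HX against CTRL was 0.03 ± 0.15 for Kdr and 0.21 ± 0.22 for Flt1 (edgeR adjusted p = 0.920 and 0.553).

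**Figure D3:**
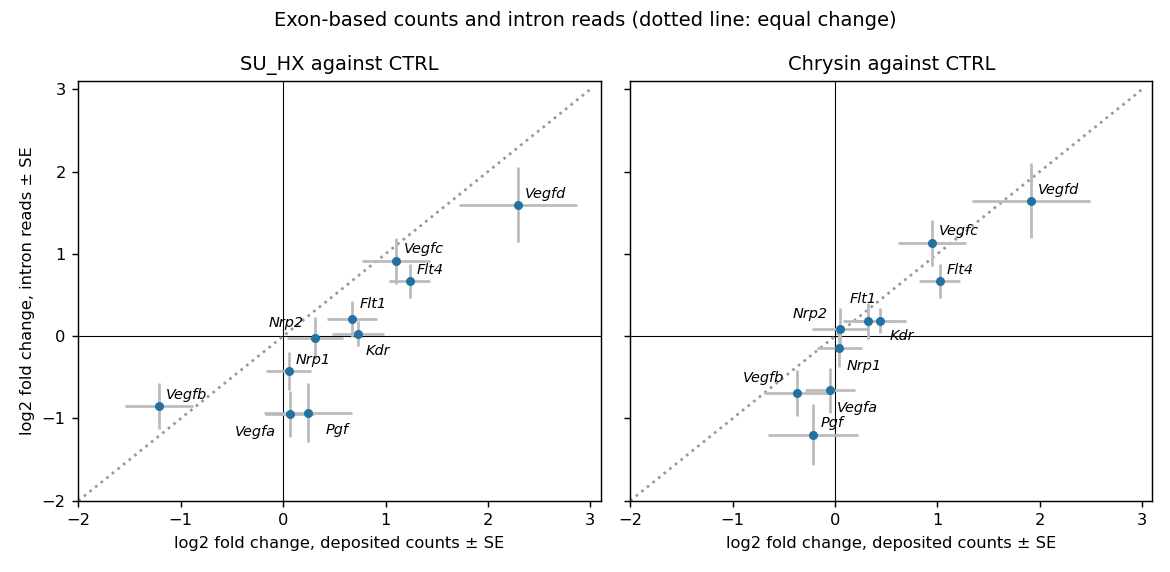
Log2 fold change from the deposited counts (horizontal axis) against that from intron reads (vertical axis), each with its standard error, for SU_HX against CTRL and Chrysin against CTRL; the dotted line marks equal change. Vegfc and Vegfd lie to the upper right and Vegfb to the lower left in both panels, while Vegfa in SU_HX lies at 0.06 by counts and -0.94 by introns.

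The co-receptors overlapped between all groups. Nrp1, which joins Vegfa to Kdr, had CPM of 503, 443, 405 and 358 in CTRL, 637, 450, 337 and 349 in SU_HX, and 443, 456, 486 and 376 in Chrysin. Nrp2, which binds Vegfc and semaphorins, had CPM of 94.8, 87.3, 83.8 and 88.6 in CTRL, 188, 74.6, 88.2 and 89.9 in SU_HX, and 101, 82.3, 122 and 62.0 in Chrysin. SU_HX 1 was the highest of the 12 for both, and the remaining SU_HX libraries spread across the CTRL range or under it. The log2 changes in SU_HX against CTRL were 0.05 ± 0.22 for Nrp1 (95% interval -0.37 to 0.48, edgeR adjusted p = 0.871) and 0.31 ± 0.27 for Nrp2 (-0.22 to 0.85, adjusted p = 0.401). Without SU_HX 1 and Chrysin 3 they were -0.17 and -0.07. Both log2 changes were near 0 in Chrysin against CTRL, at 0.04 ± 0.22 and 0.05 ± 0.27 (edgeR adjusted p = 0.932 and 0.938).

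Between Chrysin and SU_HX the values of all 9 genes overlapped, beside 2.3% of all genes whose groups did not, and 0 passed, with 1 of them, Vegfb, at an unadjusted edgeR p under 0.05. Over all genes the same fit called 0 and had 1002 at an unadjusted p under 0.05, and DESeq2 called 2. Apart from Vegfb, the log2 differences lay between -0.45 for Pgf and -0.01 for Nrp1. Those of Kdr and Flt1 were -0.29 and -0.35, with 95% intervals of -0.78 to 0.20 and -0.83 to 0.12, and became 0.08 and 0.06 without SU_HX 1 and Chrysin 3. Against CTRL, 3 receptors (Kdr, Flt1 and Flt4) were higher in Chrysin without overlap, beside 23.4% of all genes whose groups did not overlap. In SU_HX against CTRL the same receptors were higher without overlap and Vegfb lower, beside 32.6% of all genes.

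The receptors were set against 17 tested markers of endothelial cells, the cells that carry them. In SU_HX against CTRL 2 of the 17 rose, Eng by 2.19-fold and Ecscr by 2.17-fold (edgeR adjusted p = 0.00208 and 0.00977), and 0 fell. Over all genes 16% rose and 14.7% fell in this comparison. The median log2 change of the 17 was 0.60, beside 0.07 for all genes. Cldn5, a junction gene, had 0 counts in all 12 libraries, while the other 17 markers with a row in the table were detected. Summed endothelial CPM were 1835 to 1954 in CTRL, 5281 in SU_HX 1 and 2136 to 2406 in the other SU_HX libraries, and 2164 to 3517 in Chrysin, so both treated groups lay above CTRL. Relative to this sum, the log2 ratio of Kdr was -2.98 ± 0.13 in CTRL, -2.90 ± 0.22 in SU_HX and -2.96 ± 0.24 in Chrysin (SD, n = 4). That of Flt1 was -3.13 ± 0.08, -3.10 ± 0.09 and -3.24 ± 0.18, and for both receptors the groups overlapped. The ratio of Flt4 was -6.17 ± 0.21 in CTRL, -5.50 ± 0.57 in SU_HX and -5.61 ± 0.53 in Chrysin. It lay above the CTRL range in 3 of 4 SU_HX libraries, but at -6.32 in SU_HX 1 it was within that range. Nrp2 was lower relative to the sum in SU_HX, at -4.84 to -4.65 against -4.50 to -4.28 in CTRL, with no overlap. The sum was higher in every SU_HX library while the CPM of Nrp2 overlapped, so this ratio does not show less Nrp2. Vegfa, whose CPM overlapped too, likewise separated relative to the sum (-2.42 to -1.97 in SU_HX against -1.86 to -1.56 in CTRL). The part of endothelial cell content in the receptor results was not tested.

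**Figure D4:**
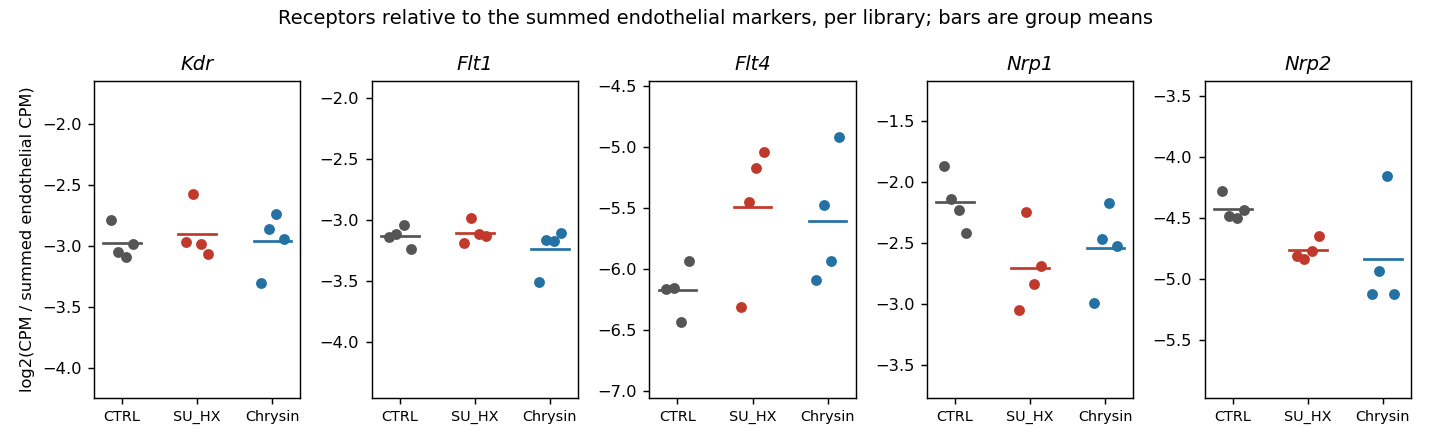
Log2 ratio of each receptor and co-receptor to the summed CPM of the endothelial markers (vertical axes each spanning the same log2 width), per library and group, with bars at the group means. Kdr and Flt1 overlap between groups near -3, and Flt4 lies higher in 3 SU_HX libraries than in CTRL. Nrp2 lies lower in all SU_HX libraries than in CTRL, where the sum is higher and the CPM of Nrp2 overlaps.

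Flt4 also marks lymphatic endothelium, but of 6 lymphatic markers tested 0 rose in SU_HX against CTRL and 1 fell by edgeR, Prox1, a regulator of lymphatic identity that heart muscle cells express too (log2 -1.52 ± 0.38, adjusted p = 0.0108). Lyve1 and Pdpn, both defining markers, had log2 changes of -0.41 and 0.68 that did not pass (edgeR adjusted p = 0.105 and 0.0949). Mmrn1, Ccl21 and Reln had -0.71, -0.74 and 0.56 and did not pass either (edgeR adjusted p = 0.101, 0.207 and 0.276). The median log2 change of the 6 was -0.56, beside 0.07 for all genes. Summed lymphatic CPM were 226 to 299 in CTRL, 69.1 to 216 in SU_HX and 138 to 229 in Chrysin. Prox1 had the highest mean of the 6 in each group (160.5, 55.7 and 90.7 CPM) and so weighs most in these sums. As heart muscle cells express it too, the sums are no plain measure of lymphatic RNA. Other cell types moved with the groups as well, where 16% of all genes rose and 14.7% fell in SU_HX against CTRL. Of the macrophage markers 11 of 11 rose in SU_HX against CTRL, with sums of 162 to 228 CPM in CTRL, 473 to 952 CPM in SU_HX and 261 to 617 CPM in Chrysin. Of the fibroblast markers 9 of 11 rose, with sums of 3988 to 6253, 6304 to 23340 and 4747 to 10913 CPM, and of the smooth muscle and pericyte markers 3 of 10 rose. Markers of lung epithelium, foreign to the heart, summed to 2.57 to 5.18 CPM in CTRL, 15.5 to 65.1 CPM in SU_HX and 7.41 to 20.4 CPM in Chrysin, with 4 of 5 risen in SU_HX. Of the atrial markers 2 of 4 rose (Nppa and Myl4) and 0 fell by edgeR, while Myl7 had a log2 change of -0.18 (adjusted p = 0.915). Their sums, carried by Nppa (mean 3935 CPM in SU_HX and 16.7 CPM in CTRL), were 39.5 to 82.8 CPM in CTRL, 1339 to 5878 CPM in SU_HX and 144 to 7122 CPM in Chrysin, and red cell markers rose in 5 of 5. The part of these cell types in the VEGF results was not tested.

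Genes that act beside or after the receptors were counted from lists. Of 19 genes that VEGF induces or that set tip and stalk cells apart in a sprout, 4 rose and 2 fell in SU_HX against CTRL. Of all genes 16% rose and 14.7% fell there, and a count near those shares is no result about a list. Cxcr4, a chemokine receptor of tip cells, rose by 3.83-fold and Unc5b, a netrin receptor of sprouting vessels, by 3.34-fold (edgeR adjusted p = 0.000992 and 0.000895). Esm1, a secreted tip cell product, rose by 2.89-fold (adjusted p = 0.0196) and Rcan1, a calcineurin inhibitor, by 2.27-fold (adjusted p = 0.0498), a call that only 4 of 20 alternatives kept. Apln, the ligand of the apelin receptor, fell by 2.19 on the log2 scale (adjusted p = 0.00250) and Hey2, a Notch target, by 1.05 (adjusted p = 0.0196). Dll4, the Notch ligand that Kdr signalling induces, had a log2 change of 0.65 ± 0.28 that did not pass (adjusted p = 0.0965). The list's median log2 change was 0.52, beside 0.07 for all genes. Unc5b, Cxcr4 and Rcan1 also rose in Chrysin against CTRL (the Rcan1 call kept by 7 of 20 alternatives), and 0 of the 19 fell, by edgeR. Of all genes 4.72% rose and 3.97% fell in Chrysin against CTRL, which holds beside the lists below too.

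Of 24 genes of the pathway within the cell and at its junctions, 2 rose and 4 fell in SU_HX against CTRL. Beside them 16% of all genes rose and 14.7% fell. Ptprj, a phosphatase that acts on Kdr, rose by 1.90-fold and Hspb1, a small heat shock protein at the end of the p38 branch, by 1.98-fold (edgeR adjusted p = 0.00447 and 0.00637). Pik3r1, the regulatory subunit of PI3 kinase, fell by 1.004 on the log2 scale and the kinase Akt1 by 0.80 (adjusted p = 0.00581 and 0.00541). Mapkapk2, a kinase of the p38 branch, fell by 1.14 (adjusted p = 0.0236), in a call kept by 14 of 20 alternatives. These genes are used by many receptors and cell types besides the endothelium. Plcg1, which binds activated Kdr, and Nos3, the endothelial nitric oxide synthase, did not pass, with log2 changes of 0.16 and 0.54 (adjusted p = 0.684 and 0.222). Against CTRL, Hspb1 rose and Pik3r1 fell in Chrysin, in calls kept by 11 and 7 of 20 alternatives.

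Among 12 other ligands and partners of the neuropilins, mostly semaphorins and plexins, 3 rose in SU_HX against CTRL. For this list and the next ones, 16% of all genes rose and 14.7% fell in that comparison. Sema3f, a ligand of Nrp2, rose by 2.02-fold, Sema3d by 1.75-fold and Sema3b by 1.46-fold (edgeR adjusted p = 0.00335, 0.0154 and 0.0393), and Plxna3, a plexin co-receptor, fell by 0.42 on the log2 scale (adjusted p = 0.0235). The calls of Sema3b and Plxna3 were kept by 12 and 17 of 20 alternatives. Of 4 angiopoietin and TIE genes Angpt1, the ligand that stabilises vessels through Tek, fell by 2.33 in SU_HX and by 2.55 in Chrysin on the log2 scale (edgeR adjusted p = 0.00237 and 0.00669), while Tek itself had 0.64 and 0.15 and did not pass. Of 6 PDGF genes Pdgfrb, the receptor on pericytes, rose by 2.16-fold, and Pdgfa and Pdgfc fell by 0.79 and 1.09 on the log2 scale in SU_HX (edgeR adjusted p = 0.00286, 0.00345 and 0.0141). Of 9 genes listed as binding VEGF or releasing it from the matrix, 4 rose and 0 fell in SU_HX against CTRL, with Ctgf at 11.1-fold, Thbs1 at 6.98-fold, Adamts1 at 2.24-fold (edgeR adjusted p = 0.00160, 0.00150 and 0.00566) and Vegfd as above. Ctgf, Thbs1 and Adamts1 rose in Chrysin against CTRL too, by 8.63-fold, 3.67-fold and 1.92-fold (adjusted p = 0.00892, 0.0234 and 0.0395), with the calls of Thbs1 and Adamts1 each kept by 13 of 20 alternatives.

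Regulators of VEGF transcription, and genes that hypoxia induces as it does Vegfa, were counted from a pair of lists. Beside them, 16% of all genes were higher and 14.7% lower in SU_HX against CTRL. Of 16 genes of the response to hypoxia, which drives Vegfa through HIF, 2 rose and 2 fell in SU_HX against CTRL. P4ha1, a collagen prolyl hydroxylase, rose by 3.01-fold and Vhl, the factor that marks HIF for breakdown, by 1.86-fold, while Egln1 and Pdk1 fell by 1.08 and 1.37 on the log2 scale (edgeR adjusted p = 0.00127, 0.0330, 0.00287 and 0.0302). The calls of Vhl and Pdk1 were kept by 13 and 14 of 20 alternatives. The median log2 change of that list was -0.11. Of 8 genes around PGC-1 and the oestrogen related receptors, which drive Vegfa and Vegfb beside mitochondrial genes in muscle, 4 fell and 0 rose: Ppargc1a by 1.61, Esrra by 1.33, Esrrb by 0.88 and Tfam by 0.70 on the log2 scale (edgeR adjusted p = 0.00378, 0.00366, 0.0468 and 0.0421). The calls of Esrrb and Tfam were kept by 6 and 9 of 20 alternatives. None of the 8 passed in Chrysin against CTRL by edgeR, with Ppargc1a at -0.996 and Esrra at -0.62 (adjusted p = 0.0685 and 0.152). Chrysin against SU_HX had 0 genes past the threshold in every one of these lists.

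Genes whose pattern over the 12 libraries was most like that of each member were found by the Pearson correlation of log2 CPM after the group means were subtracted, among 8252 genes with a mean of at least 10 CPM. Such values are shaped by the libraries that stand apart and are given as a description. Vegfb was most like Psma1, Stoml2 and Tufm at 0.99, 0.98 and 0.98, and at 0.96, 0.95 and 0.96 without SU_HX 1. Vegfa was most like Itpkb, Pcdh12 and Plxnd1 at 0.98, 0.98 and 0.97, Kdr like Efnb2, Kmt5c and Als2cl at 0.98, 0.97 and 0.96, and Flt1 like Arhgef28, Exoc3l1 and Esam at 0.97, 0.97 and 0.96. Without SU_HX 1 these were 0.94, 0.94 and 0.92 for Vegfa, 0.86, 0.80 and 0.73 for Kdr, and 0.84, 0.67 and 0.69 for Flt1. Flt4 was most like Arhgef40, Ctla2a and Ifit1bl at 0.92, 0.91 and 0.91, and Vegfc like Crtc2, Atn1 and Zufsp at 0.88, 0.85 and 0.85. Nrp1 was most like Arhgap18 at 0.97, Nrp2 like Vtn at 0.99 and Pgf like Cdc14a at 0.94. Between members, Kdr and Flt1 had a correlation of 0.90 that was 0.31 without SU_HX 1, and Vegfa and Kdr had 0.92 that was 0.67 without it. Flt4 and Vegfc had -0.04, and -0.09 without SU_HX 1, although both stood higher in SU_HX than in CTRL.

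The authors' deposited table gave its own test per gene. In the authors' deposited table Flt4 was 2.31-fold higher in SU_HX than in CTRL (adjusted p = 1.603e-05) and 2.06-fold higher in Chrysin than in CTRL (adjusted p = 0.00102), Kdr was 1.61-fold (adjusted p = 0.0430) and Vegfc 2.11-fold higher in SU_HX (adjusted p = 0.0192), and Vegfb had a signed fold of -2.33 (adjusted p = 0.00375). Flt1 had an adjusted p of 0.0652 in the authors' deposited table, so the same 4 members fell under 0.05 there as in the edgeR fit for SU_HX against CTRL.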

How the data were processed

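Per the labels, total RNA of rat hearts was sequenced in 12 Illumina libraries. The authors deposited 1 table of 32623 genes with a whole-number count per gene and library, besides exon, intron and unique read counts, and, per the file headers, their own tests with p-values and a signed fold change, a score in which falls are negative. For the aligner, genome build and annotation, nothing is given in the sources used here. Counts of the 9 genes were taken as deposited. In 2 members (Vegfc, Nrp1) a short overlapping gene had 0 counts. edgeR 4.0.16 (R 4.3.3; TMM, filterByExpr by group, robust quasi-likelihood F test, two-sided) was fitted to all 12 libraries, with Benjamini-Hochberg adjustment over 12304 genes and a threshold of 0.05; intron reads were fitted likewise over 12814 genes. SE is the absolute log2 change divided by the root of F, and intervals are 1.96 SE. Log2 CPM used a prior count of 2. The test was checked on simulated data. Libraries within a group differed beyond sampling noise (smallest chi-square per degree of freedom 3.31). Members are named throughout, with list genes past the threshold and, as values, a few well-known ones that did not pass, chosen after their values were seen. A list gene counted among those past the threshold is not reported here by name. The members and lists were chosen with earlier results of these data known. The alternatives used DESeq2 1.42.0, voom from limma 3.58.1, size factors by relative log expression, every gene without a filter, genes with a mean of 5 CPM or more, only the groups compared, a replicate block, each library left out, and SU_HX 1 with Chrysin 3 left out; those for intron reads were added after seeing the data.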

Additional observations from a re-analysis of the deposited data

Results flagged for a closer look

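Within groups of 4, a library was singled out where its gap to the nearest other library exceeded Dixon's 95% critical value for the gap over the group's range, which chance reaches in about 1 in 20 groups; 75 groups were examined and 4 stood out. SU_HX 1 was high for Vegfa at 985.4 CPM (other SU_HX libraries 472 to 544 CPM), for Flt1 at 580.1 CPM (257 to 278 CPM) and for Nrp2 at 188.1 CPM (74.6 to 89.9 CPM). This library also had the highest intron share, 71.8%, and the highest endothelial sum, 5281 CPM; their part in these values was not tested. SU_HX 2 was low for Flt4 at 48.73 CPM, with the other SU_HX libraries at 66.3 to 68.4 CPM and all CTRL libraries at most at 31.3 CPM.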

How the results depend on the processing

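Each result was recomputed under 20 alternatives, fewer where a gene left the filter (Pgf, with only the groups compared and with the minimum mean of 5 CPM). Of the changes of single members and Vegfd, 519 kept direction and side of the threshold, 18 lost the call, 19 gained one and 38, none of them called, changed sign; causes were not tested. Leaving out 1 library, genes called in SU_HX against CTRL ran from 2486 to 4780 and members from 2 to 5; in Chrysin against CTRL genes ran from 303 to 2092 and members from 1 to 2. By intron reads members called ran from 0 to 4 in both (3 and 1 with all libraries). In Chrysin against CTRL, DESeq2 called 1733 genes, a fit of only the groups compared 2599 genes and 3 members, and the fit without SU_HX 1 and Chrysin 3 called 3564 genes and 4 members, by introns 4. In Chrysin against SU_HX DESeq2 called 2 genes.

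Same-numbered libraries did not deviate together (correlations -0.382 to 0.0745 over 12 pairs). No pairing by number was seen, but low correlations cannot show that the samples were unpaired. With the replicate block 624 genes and 2 members were called in Chrysin against CTRL, and Kdr in SU_HX against CTRL had 0.65 (edgeR adjusted p = 0.0549) and Nrp1 in Chrysin against SU_HX 0.029.

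Without SU_HX 1 and Chrysin 3, log2 changes that turned were, for SU_HX against CTRL, Vegfa -0.24, Pgf -0.17, Nrp1 -0.17 and Nrp2 -0.075. For Chrysin against SU_HX they were Vegfa 0.12, Vegfc 0.13, Kdr 0.078, Flt1 0.065 and Nrp1 0.16, and for Chrysin against CTRL Nrp1 -0.0099 and Nrp2 -0.12. Nrp1 in Chrysin against SU_HX, -0.01, became 0.0257 with relative log size factors, 0.041 with no filter, 0.0255 with DESeq2, 0.039 with limma-voom and 0.0175 with only the groups compared.

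With 1 library left out, SU_HX against CTRL ran from -0.24 to 0.17 for Vegfa, -0.17 to 0.52 for Pgf, -0.17 to 0.16 for Nrp1 and -0.074 to 0.46 for Nrp2. Chrysin against SU_HX ran from -0.23 to 0.19 for Vegfa, -0.46 to 0.0167 for Vegfc, -0.44 to 0.080 for Kdr, -0.47 to 0.0155 for Flt1, -0.11 to 0.22 for Nrp1, -0.41 to 0.12 for Nrp2 and -0.92 to 0.35 for Vegfd. Chrysin against CTRL ran from -0.11 to 0.084 for Vegfa, -0.0093 to 0.13 for Nrp1 and -0.11 to 0.22 for Nrp2. Pgf rests on 5 to 17 counts per library and Vegfc on 20 to 97, which limits their precision.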
